A study of Mus musculus with 19 samples.

Results

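Type I interferons are antiviral cytokines that bind the receptor chains Ifnar1 and Ifnar2 and activate a complex that holds Stat2 and Irf9 and binds a DNA element called the interferon-stimulated response element. The genes it switches on encode sensors of viral nucleic acid, enzymes and membrane proteins that block viral growth, and feedback regulators such as Usp18. In the spleen, B cells, T cells, macrophages, neutrophils and dendritic cells all respond, so a whole-spleen profile reads the sum of their responses.

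A list of 44 such genes was followed through 19 Affymetrix arrays of mouse spleen RNA. A gene was read from a probe set annotated to that gene and to no other, and where there were several, from the one with the highest mean over the 19 arrays. By this rule 40 of the 44 listed genes were measured, out of 22180 genes in all. Oas1a, Dtx3l and Ifi27l2a are covered by probe sets shared with another gene and Ifi44 by none that could be assigned, so these 4 are not among the members described here. Ifi35 and Lgals3bp each had 2 probe sets. The deposited values are on the log2 scale, so a difference of 1 is a doubling.

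The mice carry a Rosa26-HGAL allele, which places the human germinal centre gene HGAL under the control of a Cre recombinase. Tumour-bearing spleens came from mice with Aid-Cre, which acts in activated B cells (4 arrays), with Mb1-Cre, which acts from early B cell development (5 arrays), and with Sca1-Cre, which acts in stem and progenitor cells (4 arrays). Spleens taken before tumours appeared came from Rosa26-HGAL with Sca1-Cre (3 arrays), and wild-type spleens served as controls (3 arrays). The controls are labelled wild type, so effects of a Cre or of the Rosa26-HGAL allele cannot be told apart from those of HGAL expression. No age or strain is given in the labels, and the animals were kept in a conventional facility where they met common pathogens. Each array is labelled as a separate biological replicate.

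Values within a group correlated at 0.986 to 0.991 in wild type, 0.988 to 0.989 before tumours and 0.929 to 0.989 in the Aid-Cre tumours. They correlated at 0.953 to 0.99 in the Mb1-Cre and 0.971 to 0.984 in the Sca1-Cre tumours. Averaged over lists of markers of spleen cell types, neutrophil markers lay 2.06 ± 0.39 (SD, n = 5) above the wild-type mean in the Mb1-Cre tumours, and B cell markers ranged from 3.41 below it (-3.41) to 0.26 above it in single tumours. In bulk tissue, fewer cells of a type and less RNA per cell cannot be told apart. Pancreatic enzyme transcripts were high in Mb1-Cre tumour replicate 2, at 1.95 above the wild-type mean, and to a lesser degree in wild-type replicate 2, at 0.52. Y-linked signal was present in all 3 wild-type arrays, in 1 of the 3 pre-tumour arrays, and among the tumours in 4 of 5 with Mb1-Cre, 2 of 4 with Sca1-Cre and 1 of 4 with Aid-Cre.

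RefSeq promoters (build GRCm38.p6, 250 bases before to 50 after each gene's start) were searched on both strands for GAAANNGAAA. This is the core of the interferon-stimulated response element. An entry existed for 30 of the 40 measured members, and 16 of these (53.3%) held the core, against 3.99% of all 27025 genes with a promoter. The gamma-activated site TTCNNNGAA was found in 6 of 30 members (20%) and in 9.55% of all genes; in Bst2 and Ifitm3 it overlapped the response element core. A match is a string of letters and was not tested for binding. The 170 bases before the start are printed here for 7 of the members whose values are described, chosen because the core lies in that stretch, with every core in capitals (on the other strand it reads TTTCNNTTTC).
Ifit1: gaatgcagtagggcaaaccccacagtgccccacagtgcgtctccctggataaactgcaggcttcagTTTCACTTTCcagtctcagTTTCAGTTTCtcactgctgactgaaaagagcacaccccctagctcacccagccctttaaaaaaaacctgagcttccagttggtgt
Ifit3: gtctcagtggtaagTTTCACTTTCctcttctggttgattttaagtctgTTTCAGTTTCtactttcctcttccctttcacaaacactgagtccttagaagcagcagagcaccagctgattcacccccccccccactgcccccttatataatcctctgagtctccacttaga
Isg15: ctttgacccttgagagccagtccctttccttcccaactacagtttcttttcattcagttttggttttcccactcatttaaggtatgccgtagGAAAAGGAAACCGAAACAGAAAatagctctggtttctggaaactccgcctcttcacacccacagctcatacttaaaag
Oas3: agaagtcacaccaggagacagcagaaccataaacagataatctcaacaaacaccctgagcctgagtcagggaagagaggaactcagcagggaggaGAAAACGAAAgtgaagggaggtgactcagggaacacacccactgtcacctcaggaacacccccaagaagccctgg
Rsad2: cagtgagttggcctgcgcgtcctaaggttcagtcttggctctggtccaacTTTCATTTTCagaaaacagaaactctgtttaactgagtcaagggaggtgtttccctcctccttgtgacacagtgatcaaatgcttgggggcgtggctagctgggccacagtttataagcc
Bst2: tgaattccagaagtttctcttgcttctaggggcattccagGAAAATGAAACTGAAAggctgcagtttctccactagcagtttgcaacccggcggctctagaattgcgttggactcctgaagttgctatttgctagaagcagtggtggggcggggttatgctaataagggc
Apol9a: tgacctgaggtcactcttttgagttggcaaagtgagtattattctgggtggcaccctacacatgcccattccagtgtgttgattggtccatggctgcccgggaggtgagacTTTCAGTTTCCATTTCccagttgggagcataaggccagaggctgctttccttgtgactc

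These stretches lie at chr19:34640719-34640888 (+) for Ifit1, chr19:34583359-34583528 (+) for Ifit3, chr4:156200819-156200988 (-) for Isg15, chr5:120777660-120777829 (-) for Oas3, chr12:26456453-26456622 (-) for Rsad2, chr8:71537473-71537642 (-) for Bst2 and chr15:77411081-77411250 (-) for Apol9a. Isg15 held 3 overlapping cores, starting 78, 72 and 66 bases before the start. In Ifit1 the 2 cores began 104 and 85 bases before the start. Oas3 and Rsad2 each held 1. The Apol9a and Apol9b promoters were identical at 278 of 278 overlapping positions, and the values of this gene pair are uncertain where probes could read both copies. No core was found in the windows of 14 members, Irf7, Oasl2 and Xaf1 among them.

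The members varied between individual mice more than between groups, as the median of all genes also did (shares of variance are given below). In the Aid-Cre tumours the mean over the 40 members lay 0.01, 0.98, -0.04 and 0.28 above the wild-type mean in replicates 1 to 4. In the Mb1-Cre tumours it lay at 0.40, 0.75, 0.19, 0.06 and -0.14, in the Sca1-Cre tumours at -0.12, 0.24, 0.96 and 0.26, and in the pre-tumour spleens at 0.25, 0.55 and -0.02. The wild-type spleens lay at 0.09, 0.00 and -0.09. Every tumour group thus held at least 1 mouse at or below the highest wild-type spleen and 1 mouse at 0.75 or more above the wild-type mean, and the groups overlapped throughout.

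**Figure D1:**
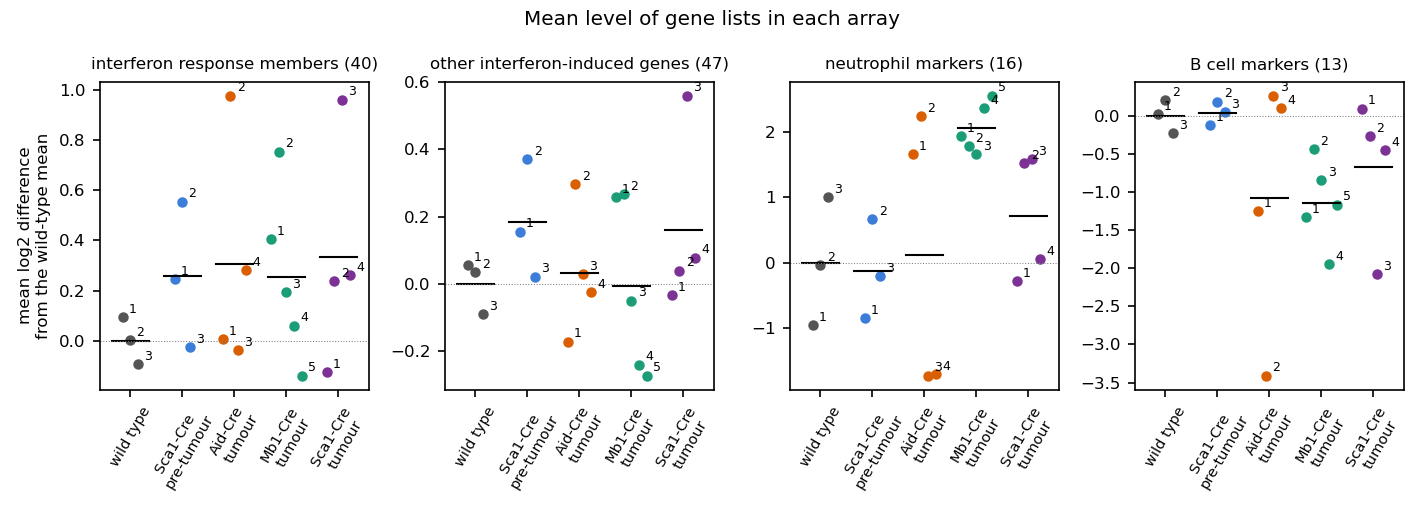
Mean log2 difference from the wild-type mean in each array (points, numbered by replicate; bars are group means) for the 40 members, for 47 other interferon-induced genes, for 16 neutrophil markers and for 13 B cell markers. Aid-Cre tumour replicate 2 (0.98) and Sca1-Cre tumour replicate 3 (0.96) have the highest member means, and the same arrays have the lowest B cell marker means.

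Aid-Cre tumour replicate 2 was the highest of the 19 arrays for 20 of the 40 members and for 9.61% of all genes. Sca1-Cre tumour replicate 3 was above every wild-type spleen for 34 of the 40 members, against 29.6% of all genes in that array. Mb1-Cre tumour replicate 2 was above every wild-type spleen for 33 of 40, and pre-tumour replicate 2 for 31 of 40, against 25.3% and 26.7% of all genes. At the other end, Sca1-Cre tumour replicate 1 was above every wild-type spleen for 7 members (17.5%), against 29.7% of all genes. The within-group standard deviation had a median of 0.50 over the members and of 0.18 over all genes, a set that includes many genes near background. Differences between group means made up a median of 22.9% of a member's variance over the arrays and 29.0% over all genes.

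The arrays with the highest member means also differed in cell markers. In Aid-Cre tumour replicate 2, B cell markers lay at -3.41 and T cell markers at -1.76 relative to wild type, while neutrophil markers lay at 2.25 and macrophage markers at 0.75. In Sca1-Cre tumour replicate 3, B cell markers lay at -2.08, T cell markers at 0.93, neutrophil markers at 1.59 and genes of the interferon gamma axis at 1.06. Mb1-Cre tumour replicate 2 combined a neutrophil marker level of 1.78 with a macrophage marker level of 1.36. Such marker levels were not particular to arrays with high member means. Mb1-Cre tumour replicate 5 (member mean -0.14) had neutrophil markers at 2.56 and B cell markers at -1.17. Mb1-Cre tumour replicate 4 (member mean 0.06) had them at 2.37 and -1.95, and Aid-Cre tumour replicate 1 (member mean 0.01) at 1.67 and -1.25. What part these cells had in the member levels was not tested.

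**Figure D2:**
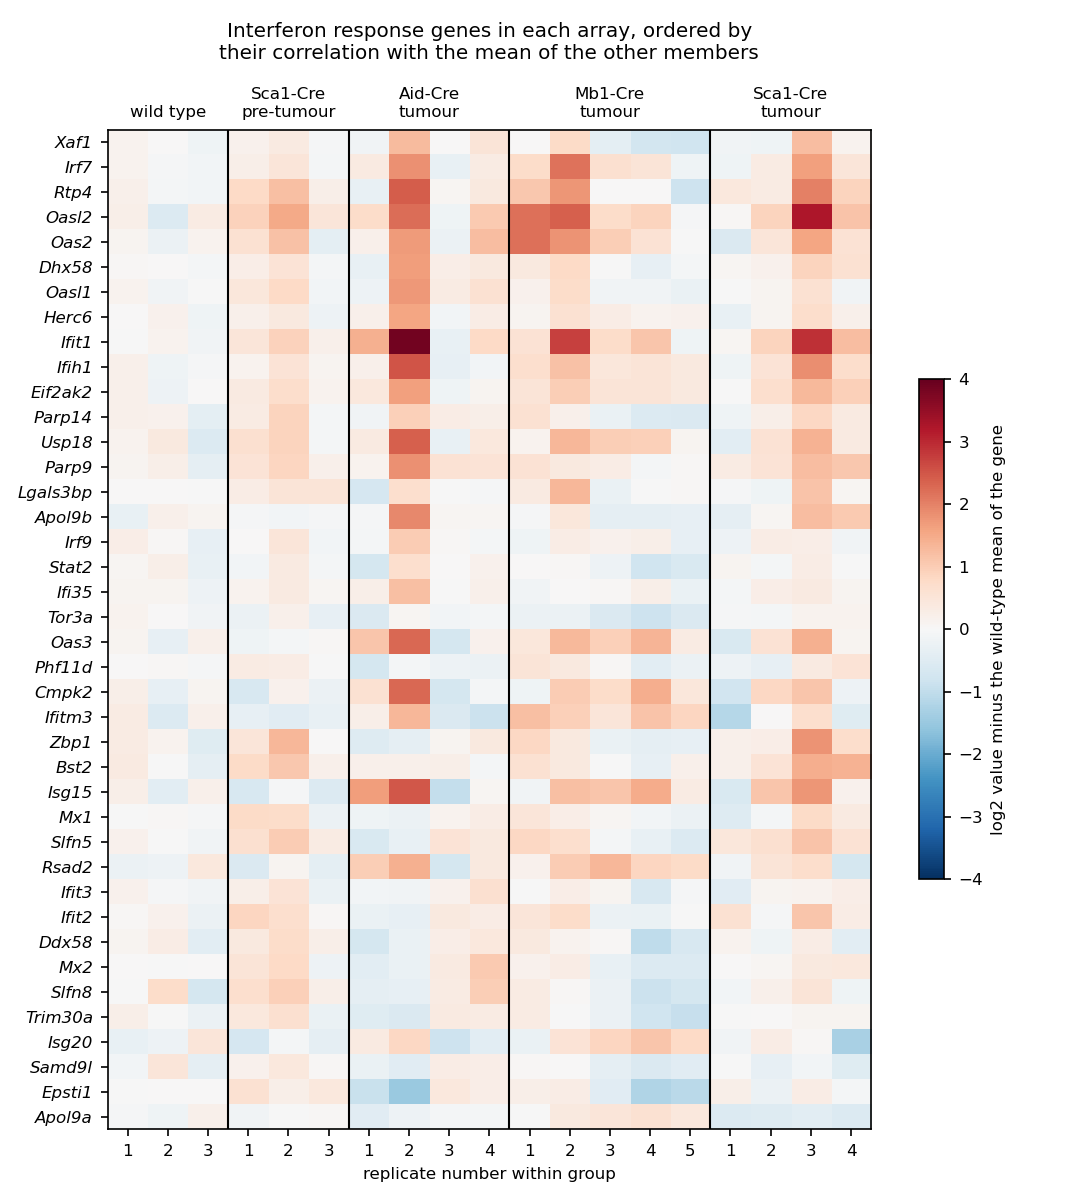
Each row is 1 of the 40 measured members and each column 1 of the 19 arrays; colour is the log2 value minus the wild-type mean of that gene. Rows are ordered by how closely a gene followed the mean of the other members within groups, from Xaf1 (r = 0.94) to Apol9a (r = -0.07).

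Against wild type, 31 of 40 members had a higher mean over all tumours, with a median difference of 0.24, where 51.5% of all genes were higher with a median near 0. The counts of higher members were 30 in the Aid-Cre tumours (median 0.28), 27 in the Mb1-Cre tumours (0.15), 35 in the Sca1-Cre tumours (0.24) and 31 in the pre-tumour Sca1-Cre spleens (0.26). The counts of single groups stand without the share of all genes. Members are correlated over the arrays, so such counts are not independent observations. Without Aid-Cre tumour replicate 2 and Sca1-Cre tumour replicate 3, an alternative chosen after the values were seen, the median fell to 0.10 over all tumours, 0.11 in the Aid-Cre tumours and 0.03 in the Sca1-Cre tumours. Without Mb1-Cre tumour replicate 2 the Mb1-Cre median was 0.01, and without pre-tumour replicate 2 the pre-tumour median was 0.12. The median of the Sca1-Cre tumour minus pre-tumour differences was 0.05, and it turned to -0.18 without Sca1-Cre tumour replicate 3 and rose to 0.20 without replicate 1.

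No member passed an adjusted p under 0.05 against wild type in limma's moderated test. The share of all genes called was 0.0180% over all tumours, 0.0180% in the Aid-Cre tumours, 0% in the Mb1-Cre tumours, 0.0406% in the Sca1-Cre tumours and 0.00451% in the pre-tumour spleens, so calls were rare everywhere. At an unadjusted p under 0.05, 1, 1, 3, 4 and 1 of the 40 members passed in these comparisons, in the same order, beside 8.93%, 8.30%, 11.3%, 11.4% and 5.47% of all genes. The members' shares were at or below the background in every one of the 5. Between Sca1-Cre tumour and pre-tumour spleens 0% of all genes were called, and 1 member (Apol9a, lower in the tumours) had an unadjusted p under 0.05, beside 5.34% of all genes.

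**Figure D3:**
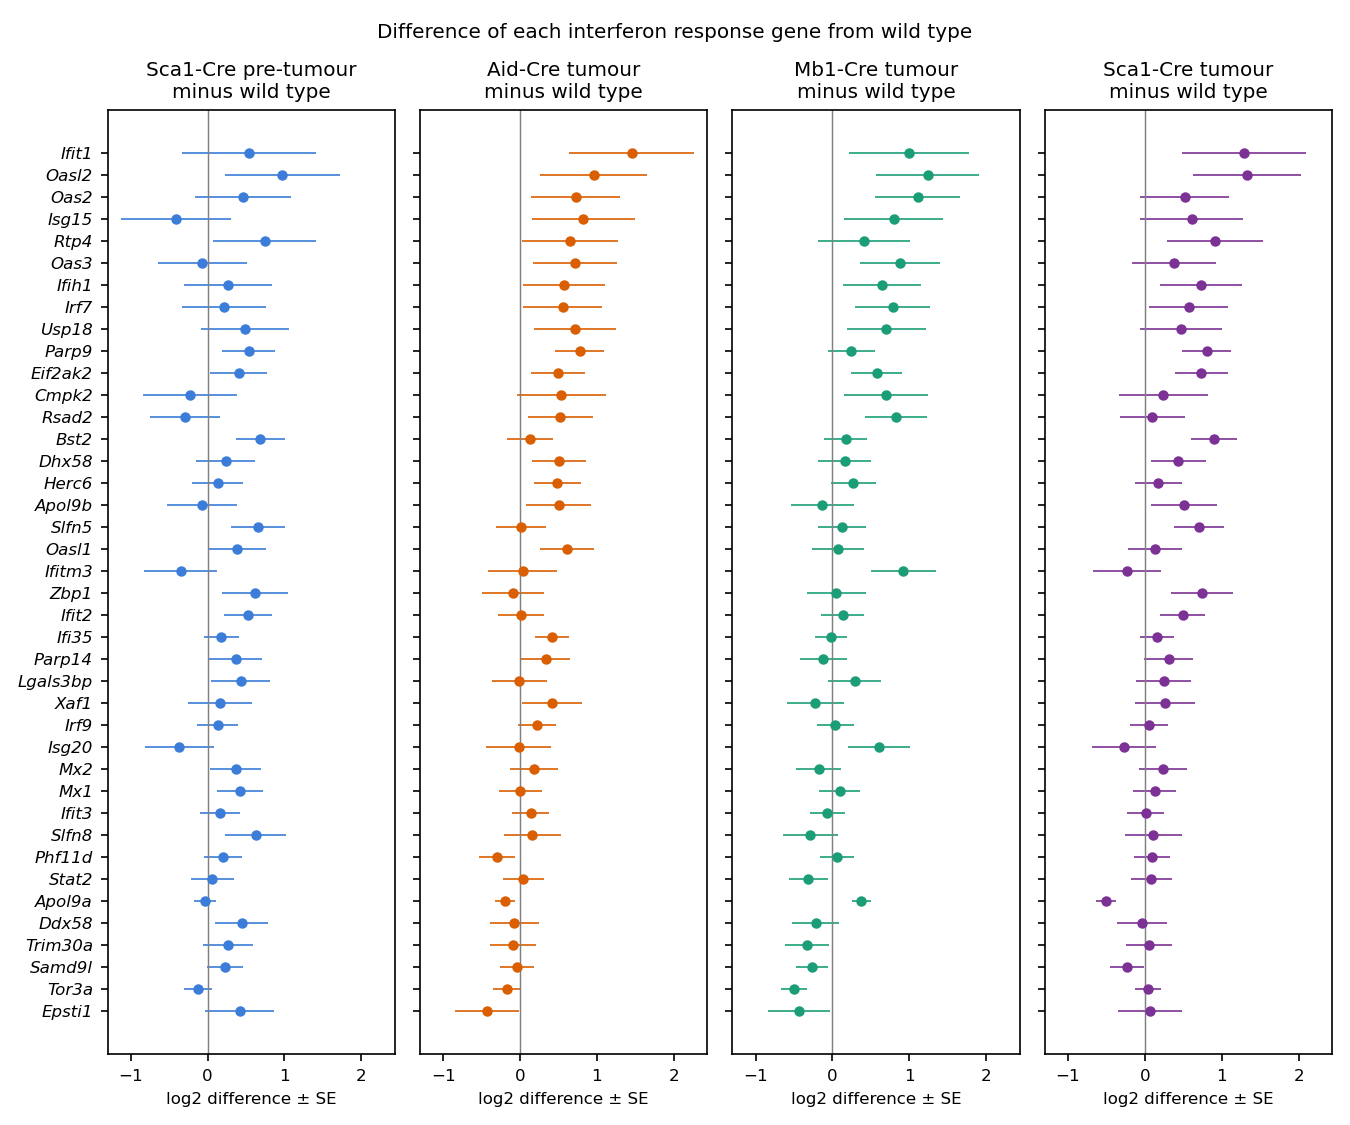
Difference of each member from wild type (points, log2, with the standard error of the limma fit) in the pre-tumour spleens and the 3 tumour groups, ordered by the difference over all tumours. Ifit1 and Oasl2 have the largest differences over all tumours, 1.25 and 1.17, with standard errors of 0.68 and 0.59.

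Single arrays were also compared without a model. No member was above every wild-type spleen in every tumour array, as 0.243% of all genes were. In the Aid-Cre tumours none was, beside 3.75% of all genes. In the Mb1-Cre tumours Ifih1, Eif2ak2, Oas3 and Ifitm3 were (4 of 40, background 4.10%). In the Sca1-Cre tumours Dhx58, Mx2, Slfn5, Rtp4 and Parp9 were (5 of 40, background 6.21%). In the pre-tumour spleens Ifit1, Oasl2, Slfn5, Rtp4, Lgals3bp and Epsti1 were (6 of 40, background 8.35%). These members make up 10%, 12.5% and 15% of the 40 in the last 3 comparisons. In the other direction, Phf11d was below every wild-type spleen in every Aid-Cre tumour, Tor3a in every Mb1-Cre tumour and Apol9a in every Sca1-Cre tumour, 1 of 40 members each, beside 3.45%, 5.38% and 5.86% of all genes. No member was in the pre-tumour spleens or over all tumours, beside 8.49% and 0.469% of all genes.

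The sensors recognise viral nucleic acid in the cell: Ddx58 (RIG-I), Ifih1 (MDA5) and Dhx58 bind RNA, Zbp1 binds left-handed nucleic acid and Eif2ak2 (PKR) halts translation on double-stranded RNA. None of the 5 was called. Zbp1 read 8.66, 8.48 and 7.84 in wild type, 8.80, 9.67 and 8.35 before tumours, and 8.54, 8.59, 10.12 and 9.03 in the Sca1-Cre tumours. Its Aid-Cre tumours read 7.80, 7.98, 8.43 and 8.72 and its Mb1-Cre tumours 9.14, 8.72, 8.08, 7.96 and 8.01. The highest Zbp1 value was that of Sca1-Cre tumour replicate 3, and the groups overlapped. The Sca1-Cre tumour minus wild-type difference was 0.74 ± 0.40 (SE, adjusted p = 0.516), and 0.39 without that array. Ifih1 ranged from 7.25 in Aid-Cre tumour replicate 3 to 10.09 in replicate 2 of the same group, so both ends of its range came from 1 genotype.

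Among the signalling and feedback genes, Stat2 and Irf9 belong to the interferon-activated factor, Irf7 amplifies interferon production and Usp18 shuts the receptor off. Stat2 read 8.36, 8.52 and 7.97 in wild type, 8.18, 8.65 and 8.21 before tumours and 7.58, 8.97, 8.30 and 8.45 in the Aid-Cre tumours. It read 8.29, 8.34, 8.07, 7.49 and 7.68 in the Mb1-Cre and 8.40, 8.22, 8.58 and 8.27 in the Sca1-Cre tumours. The lowest Stat2 value was in Mb1-Cre tumour replicate 4 and the highest in Aid-Cre tumour replicate 2, and the groups overlapped. Irf9 had the narrowest spread of group means of all 40 members, 0.22, and read 8.63, 8.43 and 8.05 in wild type. Its Aid-Cre tumours read 8.30, 9.37, 8.40 and 8.30, with replicate 2 alone above the rest. The other Irf9 values were 8.37, 8.86 and 8.27 before tumours, 8.20, 8.67, 8.54, 8.61 and 8.03 in the Mb1-Cre and 8.16, 8.68, 8.65 and 8.22 in the Sca1-Cre tumours. Irf7 reached 9.95 in Mb1-Cre tumour replicate 2 and 9.61 in Aid-Cre tumour replicate 2 from a wild-type mean of 7.77 ± 0.13 (SD, n = 3), and Usp18 reached 9.67 in the latter from 7.27 ± 0.49.

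The Ifit proteins bind foreign RNA and the Mx proteins are GTPases that trap viral particles. Ifit1 had the widest range of group means, 1.45, and the widest range over arrays. It read 6.77, 6.91 and 6.65 in wild type and 7.27, 7.69 and 6.99 before tumours. In the tumours it read 8.21, 10.64, 6.49 and 7.57 with Aid-Cre, 7.36, 9.51, 7.52, 7.89 and 6.60 with Mb1-Cre, and 6.85, 7.68, 9.71 and 8.02 with Sca1-Cre. All 3 pre-tumour spleens and 10 of the 13 tumours were above every wild-type spleen, and the highest tumour was 14.6-fold over the wild-type mean while the lowest lay below it. The group means were 6.78 ± 0.13 (SD, n = 3) in wild type, 7.32 ± 0.35 (n = 3) before tumours, 8.23 ± 1.76 (n = 4) with Aid-Cre, 7.78 ± 1.08 (n = 5) with Mb1-Cre and 8.07 ± 1.20 (n = 4) with Sca1-Cre. The difference over all tumours was 1.25 ± 0.68 (SE, adjusted p = 0.612), and 0.80 without both arrays with the highest member means.

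Ifit2 and Ifit3, of the same family, did not show this pattern. Ifit3 read 6.36, 6.14 and 6.06 in wild type, 6.41, 6.73 and 5.90 before tumours, and 6.07, 6.06, 6.35 and 6.83 in the Aid-Cre tumours. In Aid-Cre tumour replicate 2, where Ifit1 was highest of all arrays, Ifit3 was at 6.06 and Ifit2 at 5.24, the lowest Ifit2 value of the 19 arrays. Ifit3 read 6.17, 6.44, 6.31, 5.54 and 6.14 with Mb1-Cre and 5.72, 6.29, 6.31 and 6.46 with Sca1-Cre. Ifit2 read 5.62, 5.76 and 5.35 in wild type, 6.43, 6.26 and 5.64 before tumours, and 6.20, 5.54, 6.70 and 5.86 in the Sca1-Cre tumours. Its other values were 5.31, 5.24, 5.96 and 5.86 with Aid-Cre and 6.05, 6.30, 5.34, 5.31 and 5.56 with Mb1-Cre. The promoter of Ifit3 holds 2 cores of the response element, as that of Ifit1 does, and the Ifit2 windows hold none.

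Mx1 lay close to the background of the arrays, whose 40th percentiles ran from 4.72 to 4.90. It read 4.92, 4.98 and 4.90 in wild type, 5.70, 5.67 and 4.69 before tumours and 4.40, 4.84, 5.69 and 5.30 in the Sca1-Cre tumours. With Aid-Cre it read 4.75, 4.71, 5.08 and 5.21, and with Mb1-Cre 5.42, 5.20, 5.01, 4.82 and 4.69. Common inbred strains carry a defective Mx1 gene, and the labels do not name the strain. Mx2 was also near background in 2 of the 5 groups, Phf11d in 1 and Apol9b in all 5.

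The oligoadenylate synthases make the second messenger that activates the RNA-cleaving enzyme RNase L. Oasl1 and Oasl2 belong to the same family. All 4 measured genes had a higher mean in each tumour group than in wild type, by 0.07 to 1.33, and none was called. Oasl2 read 6.98, 6.18 and 7.05 in wild type, 7.65, 8.25 and 7.22 before tumours and 6.79, 7.63, 9.97 and 7.88 in the Sca1-Cre tumours. It read 7.47, 8.97, 6.57 and 7.78 with Aid-Cre and 8.93, 9.14, 7.48, 7.63 and 6.69 with Mb1-Cre. All 3 pre-tumour spleens and 10 of 13 tumours were above the wild-type range. Its group means were 6.74 ± 0.49 (SD, n = 3) in wild type, 7.71 ± 0.52 (n = 3) before tumours and 8.07 ± 1.35 (n = 4) in the Sca1-Cre tumours, and the difference of the last from wild type was 1.33 ± 0.70 (SE, adjusted p = 0.50), or 0.69 without Sca1-Cre tumour replicate 3.

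Oas3 stood apart from Oasl2 in the pre-tumour spleens. It read 7.46, 7.03 and 7.54 in wild type and 7.17, 7.27 and 7.39 before tumours. All 5 Mb1-Cre tumours, at 7.80, 8.65, 8.28, 8.69 and 7.67, were above the wild-type range, and the difference was 0.88 ± 0.52 (SE, adjusted p = 0.529). The Aid-Cre tumours read 8.44, 9.63, 6.64 and 7.51 and the Sca1-Cre tumours 6.72, 7.93, 8.77 and 7.46, overlapping wild type on both sides.

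Isg15 is a ubiquitin-like protein attached to others by ligases of the Herc family. It read 9.19, 8.56 and 9.15 in wild type, 8.32, 8.93 and 8.41 before tumours and 8.82, 10.18, 10.06, 10.46 and 9.29 in the Mb1-Cre tumours. It read 10.63, 11.45, 8.03 and 9.06 with Aid-Cre and 8.37, 10.09, 10.72 and 9.13 with Sca1-Cre. Within the Aid-Cre group the highest and the lowest Isg15 value of all 19 arrays stood side by side, 3.42 apart. The difference over all tumours was 0.74 ± 0.56 (SE, adjusted p = 0.723), and the pre-tumour mean lay 0.41 below wild type.

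Rsad2 (viperin) and Cmpk2, adjacent genes that act on nucleotides, and the nuclease Isg20 had a similar order of groups, highest with Mb1-Cre and lowest before tumours. Rsad2 read 10.61, 10.64 and 11.28 in wild type, 10.26, 10.95 and 10.44 before tumours and 11.00, 11.85, 12.18, 11.70 and 11.62 with Mb1-Cre. It read 11.81, 12.26, 10.15 and 11.25 with Aid-Cre and 10.71, 11.35, 11.54 and 10.15 with Sca1-Cre. Of the 5 Mb1-Cre tumours 4 were above the wild-type range, and the difference was 0.83 ± 0.40 (SE, adjusted p = 0.454). The Schlafen genes Slfn5 and Slfn8, and Samd9l, which restricts translation, had another order: their highest group means were in Sca1-Cre spleens, with tumours for Slfn5 and before tumours for Slfn8 and Samd9l. Slfn5 lay at 0.71 ± 0.33 above wild type in the tumours (adjusted p = 0.428) and 0.66 ± 0.35 before them (adjusted p = 0.883).

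Bst2 (tetherin) holds budding virus at the cell surface, Ifitm3 blocks virus entry through membranes and Rtp4 is a receptor chaperone. Bst2 read 8.12, 7.73 and 7.40 in wild type, 8.52, 8.84 and 7.95 before tumours and 7.94, 8.31, 9.21 and 9.16 in the Sca1-Cre tumours. With Aid-Cre it read 7.95, 7.96, 7.97 and 7.66 and with Mb1-Cre 8.35, 8.14, 7.72, 7.42 and 7.96. The 2 highest Bst2 values were both Sca1-Cre tumours, whose difference from wild type was 0.90 ± 0.30 (SE, adjusted p = 0.259). Bst2 was not high in Aid-Cre tumour replicate 2, unlike Ifit1 and Isg15.

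Ifitm3 was highest in another tumour group. All 5 Mb1-Cre tumours, at 10.81, 10.58, 10.10, 10.75 and 10.47, were above the wild-type values of 9.95, 9.08 and 9.83. The pre-tumour spleens read 9.29, 9.18 and 9.34, the Aid-Cre tumours 9.87, 10.96, 9.04 and 8.75, and the Sca1-Cre tumours 8.49, 9.64, 10.29 and 9.13. The Mb1-Cre minus wild-type difference was 0.92 ± 0.42 (SE, adjusted p = 0.43), and the Mb1-Cre minus Sca1-Cre tumour difference 1.15 ± 0.39 (adjusted p = 0.156), with 1 Sca1-Cre tumour, replicate 3, inside the Mb1-Cre range. Without that array and Aid-Cre tumour replicate 2, Ifitm3 was also called in this comparison and in the F-test over the 3 tumour groups. Both arrays were chosen after the values were seen, by member means that include Ifitm3. Leaving out replicate 3 removes the overlap itself, so this call adds no support for a difference. Neutrophil markers were high in the same 5 Mb1-Cre arrays, at 1.66 to 2.56 above the wild-type mean. The wild-type arrays ran from -0.96 to 1.00. These markers also lay at 1.67 in Aid-Cre tumour replicate 1 and 1.53 in Sca1-Cre tumour replicate 2, where Ifitm3 was inside the wild-type range. In Aid-Cre tumour replicate 2 (2.25) and Sca1-Cre tumour replicate 3 (1.59) Ifitm3 was above that range. What part neutrophils had was not tested.

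**Figure D4:**
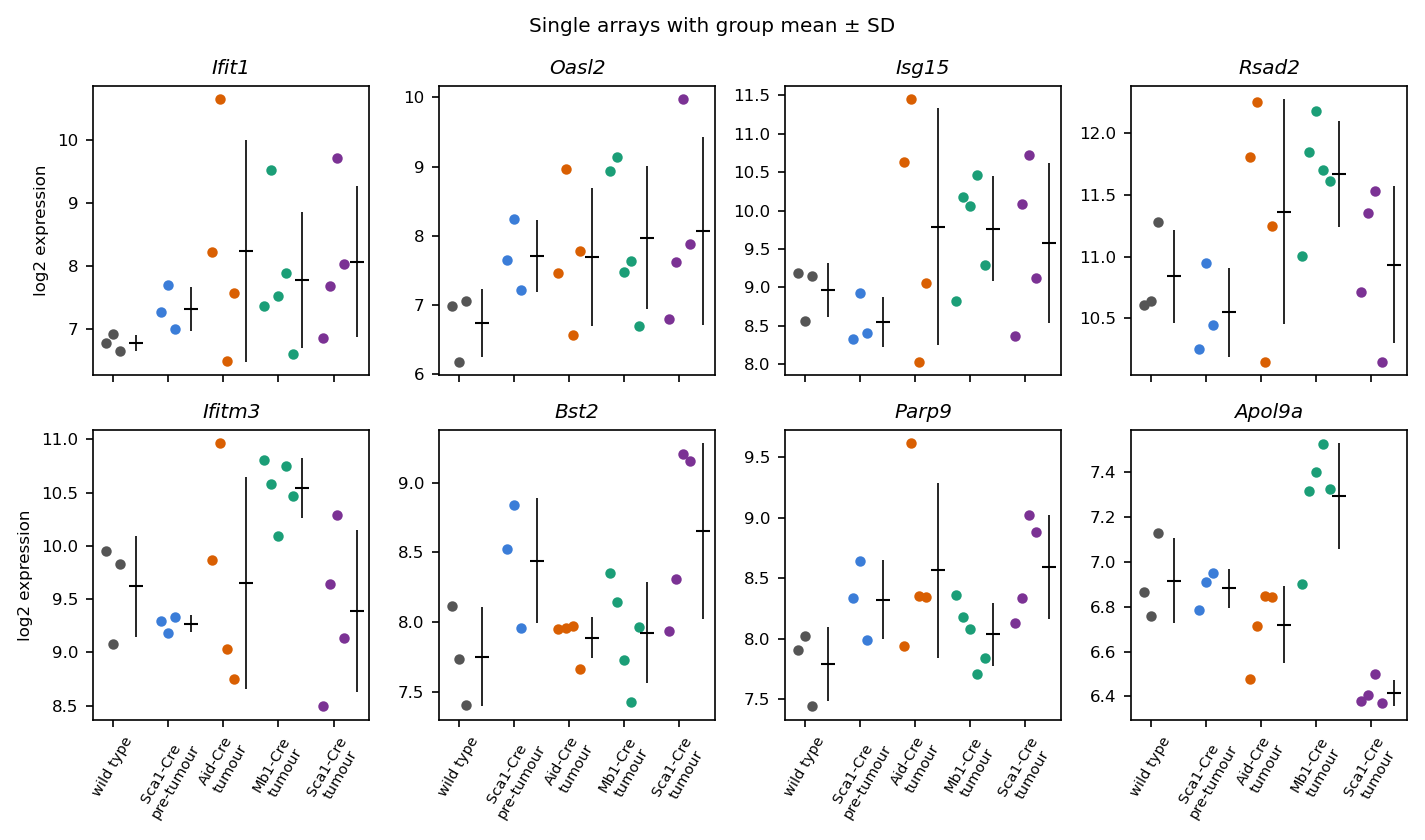
Log2 values of 8 members in single arrays (points), with the mean and SD of each group beside them. The widest spread within a tumour group is 4.15 for Ifit1 and 3.42 for Isg15, both with Aid-Cre, while Apol9a is tight within groups and differs between the Mb1-Cre and Sca1-Cre tumours.

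Parp9 and Parp14 are ADP-ribosyltransferases of the interferon response. Parp9 read 7.91, 8.02 and 7.44 in wild type and 8.13, 8.33, 9.02 and 8.88 in the Sca1-Cre tumours, with no overlap, a difference of 0.80 ± 0.32 (SE, adjusted p = 0.35). It read 8.34, 8.64 and 7.99 before tumours, 7.94, 9.62, 8.36 and 8.35 with Aid-Cre and 8.37, 8.18, 8.08, 7.71 and 7.84 with Mb1-Cre. Over all tumours it was the member with the smallest p, 0.61 ± 0.27 (adjusted p = 0.532). Parp14 read 9.19, 9.18 and 8.61 in wild type, 9.30, 9.87 and 8.90 before tumours, and 8.85, 9.93, 9.29 and 9.23 with Aid-Cre. Its remaining values were 9.59, 9.21, 8.72, 8.45 and 8.40 with Mb1-Cre and 8.82, 9.21, 9.82 and 9.35 with Sca1-Cre, so its groups overlapped.

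Epsti1, an interferon-induced gene first found in epithelial and stromal cell contact, was tight in wild type at 9.19, 9.23 and 9.23. The pre-tumour spleens were all higher, at 9.83, 9.45 and 9.63. The tumours fell on both sides, at 8.32, 7.73, 9.65 and 9.47 with Aid-Cre, 9.46, 9.53, 8.76, 8.01 and 8.15 with Mb1-Cre and 9.47, 8.99, 9.51 and 9.15 with Sca1-Cre. Its lowest value was in Aid-Cre tumour replicate 2, the array with the highest values of 20 other members. None of the 9 genes of this mixed group of other induced members except Apol9a was called in any comparison.

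Apol9a, an interferon-inducible apolipoprotein L gene, was the member that differed between tumour groups. It read 6.90, 7.32, 7.40, 7.52 and 7.33 in the Mb1-Cre tumours and 6.38, 6.40, 6.50 and 6.37 in the Sca1-Cre tumours, with no overlap. The means were 7.29 ± 0.23 (SD, n = 5) and 6.41 ± 0.06 (n = 4), a difference of 0.88 ± 0.11 (SE, limma adjusted p = 0.0153) with all 5 tumours of one group above all 4 of the other. It read 6.87, 6.76 and 7.13 in wild type, 6.78, 6.91 and 6.95 before tumours and 6.48, 6.71, 6.85 and 6.84 with Aid-Cre. The Sca1-Cre tumours were thus below every array of every other group except Aid-Cre tumour replicate 1, which at 6.48 lay inside their range. Against wild type the Sca1-Cre tumours differed by -0.50 ± 0.13 (adjusted p = 0.176) and the Mb1-Cre tumours by 0.38 ± 0.12 (adjusted p = 0.288), neither of which passed.

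Between tumour groups, 0.0451% of all genes were called in Aid-Cre minus Mb1-Cre, 0.0451% in Aid-Cre minus Sca1-Cre and 0.0406% in Mb1-Cre minus Sca1-Cre, with 0, 0 and 1 of 40 members. At an unadjusted p under 0.05, 4, 4 and 5 members passed beside 8.76%, 13.6% and 17.6% of all genes. Apol9a also passed the moderated F-test over the 5 groups (adjusted p = 0.0417) and over the 3 tumour groups (adjusted p = 0.0126), in which 0.0451% and 0.0496% of all genes were called. At an unadjusted p under 0.05, 4 members passed each F-test, beside 15.2% and 16.3% of all genes. The F-test call over the 5 groups was lost under quantile normalization, median centring and most runs without 1 array. The call between Mb1-Cre and Sca1-Cre tumours rests on the shared estimate of the spread and on single arrays: with only the compared groups in the fit the adjusted p of Mb1-Cre minus Sca1-Cre was 0.0628, without Sca1-Cre tumour replicate 1 it was 0.0626, without replicate 4 it was 0.0859, and without both arrays with pancreatic transcripts it was 0.0676, while the difference stayed between 0.84 and 0.94 over the alternatives other than leaving out single arrays. Apol9b, its near-identical copy, read near background in most arrays and had its highest value, 5.87, in Aid-Cre tumour replicate 2, where Apol9a was at 6.71.

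Within groups many members moved together, but not all. Some pairs moved in opposite directions, such as Cmpk2 and Epsti1 (r = -0.657) and Isg20 and Trim30a (r = -0.645). Over deviations from group means in the 19 arrays, the median correlation between pairs of members was 0.476, with 48.1% of the 780 pairs above 0.5, and over all pairs of genes it was 0.005. The genes are read from the same arrays, so these are descriptions. Xaf1 (r = 0.944), Irf7 (0.941), Rtp4 (0.934), Oasl2 (0.914) and Oas2 (0.885) followed the mean of the other members most closely. Apol9a (-0.071), Epsti1 (-0.031), Samd9l (0.075) and Isg20 (0.144) followed it least. Over the values themselves, r depended on the 2 arrays farthest from the median of that mean. Without them it fell from 0.851 to 0.675 for Xaf1 and from 0.525 to 0.154 for Isg15. It rose from 0.507 to 0.697 for Mx1 and from -0.061 to 0.288 for Epsti1. The closest members were then Oasl2 (0.861), Rtp4 (0.858), Irf7 (0.837) and Oas2 (0.835). Among members that lie next to each other on a chromosome, the pairs Rsad2 and Cmpk2 (0.813), Mx1 and Mx2 (0.753, with 2 genes between), Oasl1 and Oasl2 (0.746, with 1 gene between) and Oas2 and Oas3 (0.551) correlated more than the median pair, and Ifit2 and Ifit3 (0.466) did not.

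The members differed in how they followed cell type markers. Over the 19 arrays Isg20, Rsad2, Isg15, Cmpk2, Ifitm3 and Oas3 correlated at 0.7 or more with the mean of 16 neutrophil markers (15% of members, 3.95% of all genes). Ifitm3 had the highest value, 0.812. The same members correlated at 0.528 (Ifitm3) to 0.805 (Isg20) with 7 erythroid markers. Their correlations with B cell markers ran from -0.565 (Isg20) to -0.872 (Oas3). The erythroid value was above the neutrophil value for Isg20, Rsad2, Isg15 and Cmpk2, and below it for Ifitm3 and Oas3. Zbp1, Slfn5, Ifit2, Ddx58, Mx2, Slfn8, Trim30a, Samd9l and Epsti1 correlated at 0.6 or more with the mean of 11 T cell markers (22.5% of members, 9.73% of all genes), Epsti1 most closely at 0.923. With erythroid markers these members ran from -0.526 (Zbp1) to -0.783 (Trim30a). Samd9l was closer to plasmacytoid dendritic cell markers (0.788) than to T cell markers (0.676). Zbp1 was closer to the interferon gamma axis (0.898 against 0.667), and the rest were closer to T cell markers than to either. Irf7, Ifit1, Ifih1 and 9 other members correlated at -0.6 or below with 13 B cell markers (30% of members, 7.97% of all genes). B cell marker means were lowest in Aid-Cre tumour replicate 2 (-3.41) and Sca1-Cre tumour replicate 3 (-2.08), the arrays with the highest member means. The correlations of single members with B cell markers were not recomputed without them. The limits of 0.7 and 0.6 were chosen after the values were seen, and the arrays share tissue and processing. What part cell content had in these genes was not tested.

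**Figure D5:**
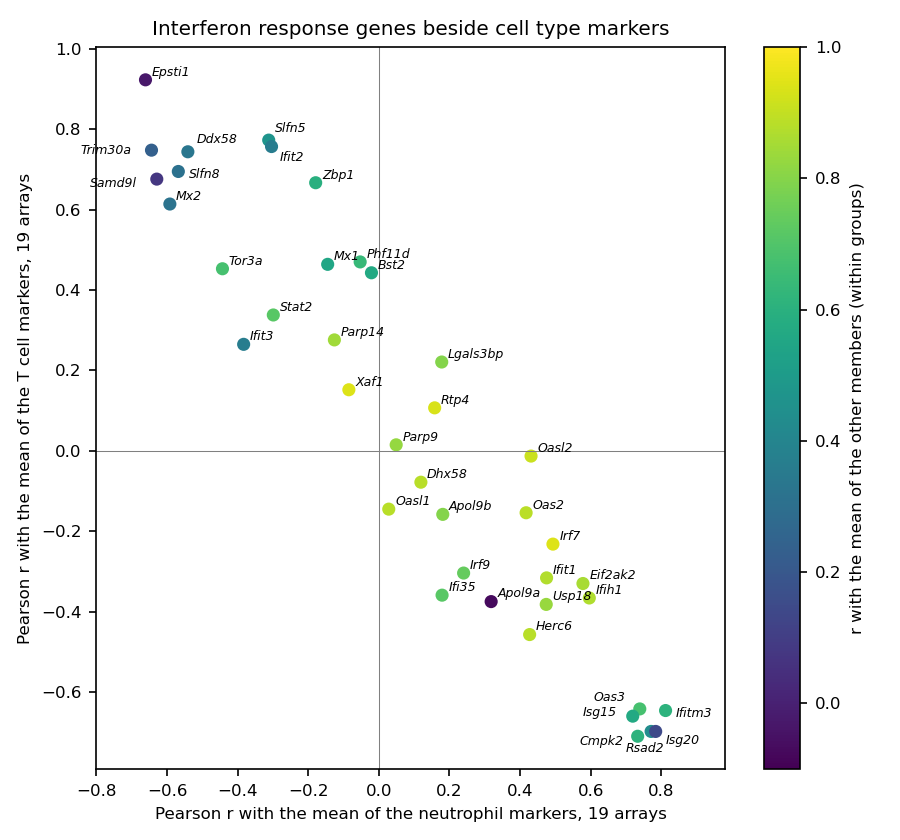
Each point is a member; the axes give its Pearson correlation over 19 arrays with the mean of 16 neutrophil markers and of 11 T cell markers, and colour its correlation with the other members within groups. Isg20, Rsad2, Isg15, Cmpk2, Ifitm3 and Oas3 have neutrophil correlations of 0.719 to 0.812 and Epsti1 has a T cell correlation of 0.923. Xaf1, which follows the other members most closely within groups, is at -0.085 and 0.152.

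The mean of the 40 members followed that of 47 other interferon-induced genes across the arrays (r = 0.85, rho = 0.811, n = 19; r = 0.779 without the 2 arrays farthest from the median) and, less closely, that of 6 genes that restrain self nucleic acid (r = 0.718, rho = 0.46; 0.359 without 2) and that of 13 genes of the interferon gamma axis (r = 0.662, rho = 0.646; 0.442 without 2). Against B cell markers r was -0.544 and rho -0.367, and without 2 arrays r was 0.018, so that relation rests on those arrays. Against markers of plasmacytoid dendritic cells, the main interferon producers of blood and spleen, r was -0.287 (their marker Siglech had group means of 6.03 to 6.93), and against macrophage markers 0.445 (rho = 0.181). These are 17 relations of 1 family, given without tests.

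Of 18 measured interferon genes none was called, and Ifnb1 stayed between 3.34 and 3.87 in every array, below the arrays' 40th percentile; the probe sets of this family can read related copies. The mean of the interferon genes correlated with the member mean at 0.207. Of 10 measured receptor and JAK-STAT genes none was called: Ifnar1 had group means of 9.30 to 9.71, Ifnar2 of 9.01 to 9.41, Jak1 of 10.72 to 11.24 and Tyk2 of 8.26 to 8.50. Of 16 genes of the induction pathway none was called, and 11 had a lower mean over all tumours, with a median of -0.20. Among them the mean of Irf3, the factor that starts interferon production, was 7.27 to 7.67. Of 6 genes that restrain self nucleic acid, such as Adar and Samhd1, none was called.

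Of 47 other interferon-induced genes, 1 was called in 1 comparison: Casp4, an inflammatory caspase, had a mean of 8.05 ± 0.31 (SD, n = 4) in the Aid-Cre and 9.16 ± 0.27 (n = 4) in the Sca1-Cre tumours. Over all tumours 27 of the 47 were higher than in wild type, with a median of 0.04, and before tumours 30 were, with a median of 0.21. The share of all genes over all tumours is given above, and the count before tumours stands without it. Of 13 genes of the interferon gamma axis none was called. Ifng itself, the cytokine of T and NK cells, had a mean of 5.08 ± 0.19 in wild type (n = 3) and 6.57 ± 1.21 in the Sca1-Cre tumours (n = 4), and its F-test over the 5 groups gave an adjusted p of 0.354.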

How the data were processed

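Total RNA of whole spleens was profiled on Affymetrix arrays (41345 probe sets). The authors deposited log2 values made by RMA with the oligo package, per the submitters' processing notes; RMA subtracts background, quantile-normalizes and summarises probes, which compresses low values. Array medians ran from 5.23 to 5.40. The number of arrays limits the precision. From the deposited values, 1 probe set per gene was kept, and limma 3.58.1 (R 4.3.3; lmFit, eBayes) was fitted to all 19 arrays with 1 mean per group. The 9 comparisons (two-sided) and 2 F-tests were adjusted by Benjamini-Hochberg over 22180 genes; a call is an adjusted p under 0.05. The code was tested on simulated data. Values by array are given for each called member, for the member with the smallest F-test p and the one with the highest mean in each role, and for the 4 members with the widest and the 4 with the narrowest range of group means. Other members given with values were named after these were seen. The members and lists were chosen with earlier results of these data known. Alternatives were other normalizations, filters, variance models, the replicate block, a sex covariate and leaving out arrays. No pairing of same-numbered arrays of different groups was seen: their deviations correlated at a median of -0.043, -0.056 and -0.039 for numbers 1, 2 and 3. Single pairs ran from -0.534 to 0.409 for number 1, and 10 pairs per number are too few to decide whether such arrays shared a block.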

Additional observations from a re-analysis of the deposited data

Results flagged for a closer look

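In groups of 4 or 5 arrays, 4 of 120 tests of the highest or lowest value against the others passed Dixon's limit, where chance gives about 6. Irf9 was at 9.37 in Aid-Cre tumour replicate 2, with the others at 8.30 to 8.40. Apol9b was at 5.87 in the same array, with the others at 3.90 to 4.04. Eif2ak2 was at 8.47 in Mb1-Cre tumour replicate 2, with the others between 7.87 and 8.0. Bst2 was at 7.66 in Aid-Cre tumour replicate 4, below the others at 7.95 to 7.97.

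Between groups, Apol9a differed by 0.88 between the Mb1-Cre and the Sca1-Cre tumours (limma adjusted p = 0.0153). Samd9l lay 0.22 above the wild-type mean in the pre-tumour spleens and 0.23 below it (-0.23) in the Sca1-Cre tumours, every array on its side, a gap of 0.46. Ifitm3 lay at -0.35 in the pre-tumour spleens and at 0.92 in the Mb1-Cre tumours, again with every array on its side, a gap of -1.27. These last differences between effects were not tested.

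A probe set shared by Dtx3l and Parp9, which the member rule leaves out, had a mean of 8.71 in the Sca1-Cre tumours, where every array was above every wild-type spleen.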

How the results depend on the processing

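The number of arrays and values near background (Apol9b, Mx1, Mx2 and Phf11d) limit what differences could be detected. The median over the 40 members kept its side of 0 against wild type under every alternative run, and moved by less than the spread between arrays. The median of Sca1-Cre tumour minus pre-tumour differences, 0.05, changed sign, ranging from -0.182 to 0.203 over runs without 1 array. No member was called against wild type under any of them. The count of members called in Mb1-Cre minus Sca1-Cre tumours, 1, became 0 with only the compared groups fitted, on leaving out replicate 1 or replicate 4 of the Sca1-Cre tumours, and without both arrays with pancreatic transcripts, and 2 (Ifitm3 and Apol9a) without both arrays with the highest member means. In Aid-Cre minus Mb1-Cre it became 1 without Mb1-Cre tumour replicate 1, and ranged from 0 to 1 over runs without 1 array. Over the 5 groups the F-test count, 1, became 0 under quantile normalization, median centring, a filter at 6, the variance trend, array weights, the replicate block, the sex covariate, without either pair of arrays above, and in 15 of 19 runs without 1 array. Over the 3 tumour groups it became 0 with only those groups and without Mb1-Cre tumour replicate 5, and 2 without both arrays with the highest member means. The arrays with the highest member means were chosen after the values were seen. The largest shift of the median of all genes by another scaling was 0.0826.

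Of 2932 recomputed differences of 17 named members, 97 changed sign. None of these was a call, and each main value lay within 1 SE of 0. No pairing of the arrays by replicate number was seen, and the cause of the sign changes was not tested. Under cyclic loess the difference from wild type was Ifit2 Aid-Cre 0.000, Mx1 Aid-Cre -0.036, Rsad2 Sca1-Cre -0.032 and Epsti1 Sca1-Cre -0.017. Under median centring the difference from wild type was Ifit2 Aid-Cre -0.008 and Mx1 Aid-Cre -0.014. Under quantile normalization the difference from wild type was Mx1 Aid-Cre -0.026, Irf9 Sca1-Cre -0.008 and Epsti1 Sca1-Cre -0.003. With the replicate block the difference from wild type was Stat2 all tumours 0.022, Mx1 Aid-Cre -0.019, Parp14 Mb1-Cre 0.066 and Ifit3 Sca1-Cre -0.010. With a sex covariate the difference from wild type was Stat2 Aid-Cre -0.135, Ifit2 Aid-Cre -0.081, Ifitm3 Aid-Cre -0.169, Zbp1 Mb1-Cre -0.023, Stat2 Sca1-Cre -0.033, Rsad2 Sca1-Cre -0.094, Apol9a pre-tumour 0.043 and Stat2 pre-tumour -0.094. Without both arrays with pancreatic transcripts the difference from wild type was Stat2 all tumours 0.025, Ifitm3 all tumours -0.033, Ifit3 all tumours -0.021, Ifitm3 Aid-Cre -0.237, Rsad2 Sca1-Cre -0.006 and Ifit3 Sca1-Cre -0.014. Without both arrays with the highest member means, chosen after seeing the data, the difference from wild type was Irf9 all tumours -0.004, Ifitm3 all tumours -0.004, Stat2 Aid-Cre -0.174, Irf9 Aid-Cre -0.036, Ifitm3 Aid-Cre -0.403, Irf9 Sca1-Cre -0.016, Rsad2 Sca1-Cre -0.104, Epsti1 Sca1-Cre -0.014, Ifit3 Sca1-Cre -0.029 and Mx1 Sca1-Cre -0.084. Without 1 array at a time, the difference from wild type in all tumours ranged from -0.035 to 0.118 for Ifit3, from -0.029 to 0.408 for Ifitm3, from -0.052 to 0.236 for Irf9, from -0.015 to 0.273 for Parp14, from -0.217 to 0.056 for Stat2 and from -0.010 to 0.397 for Zbp1. Without 1 array at a time, the difference from wild type in Aid-Cre spleens ranged from -0.040 to 0.317 for Bst2, from -0.111 to 0.131 for Ifit2, from -0.026 to 0.231 for Ifit3, from -0.403 to 0.334 for Ifitm3, from -0.036 to 0.353 for Irf9, from -0.086 to 0.082 for Mx1, from -0.174 to 0.289 for Stat2 and from -0.338 to 0.069 for Zbp1. Without 1 array at a time, the difference from wild type in Mb1-Cre spleens ranged from -0.004 to 0.353 for Bst2, from -0.014 to 0.234 for Ifit2, from -0.144 to 0.082 for Ifit3, from -0.119 to 0.169 for Irf9, from -0.003 to 0.181 for Mx1 and from -0.189 to 0.218 for Zbp1. Without 1 array at a time, the difference from wild type in Sca1-Cre spleens ranged from -0.014 to 0.156 for Epsti1, from -0.077 to 0.168 for Ifit3, from -0.531 to 0.068 for Ifitm3, from -0.102 to 0.186 for Irf9, from -0.084 to 0.345 for Mx1, from -0.104 to 0.359 for Rsad2 and from -0.070 to 0.203 for Stat2. Without 1 array at a time, the difference from wild type in pre-tumour spleens ranged from -0.114 to 0.071 for Apol9a, from -0.025 to 0.389 for Ifit3, from -0.048 to 0.261 for Irf9, from -0.223 to 0.032 for Oas3 and from -0.092 to 0.181 for Stat2.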

Other observations

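The probe sets left out because they name a pair of genes also varied between mice. The one for Oas1a and Oas1g read 7.30 in Aid-Cre tumour replicate 2 and 7.34 in Sca1-Cre tumour replicate 3, from a wild-type mean of 6.07 ± 0.05 (SD, n = 3), and 5.39 in Aid-Cre tumour replicate 1. The one for Ifi27l2a and Ifi27l2b had means of 7.47 ± 0.51 in wild type (n = 3), 8.11 ± 0.36 before tumours (n = 3), 6.88 ± 0.91 with Aid-Cre (n = 4), 7.23 ± 1.07 with Mb1-Cre (n = 5) and 8.56 ± 0.74 with Sca1-Cre (n = 4). Its value in Aid-Cre tumour replicate 2 was 6.32, below every wild-type spleen, where 20 of the 40 members were at their highest. Ifi35 and Lgals3bp had second probe sets whose group means ran from 5.63 to 5.83 and from 6.92 to 7.31.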
